A study of Mus musculus with 40 samples.

Results

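The livers of 5 female mouse fetuses whose mothers ate a western diet (WD) were compared with those of 4 female fetuses of mothers on a control diet (CD), both at the ordinary folic acid content. The 9 samples, 1 library each, were taken by diet and fetal sex from the 40 libraries of the series. The western diet held 45% of its energy as fat and the control diet 10%, and each contained 2 mg/kg folic acid. All mice were C57BL/6, dams had been fed for 13 weeks before mating and went on with the diet while pregnant, and livers were collected on gestational day 18.5. The study presents the western diet as a mouse model of gestational diabetes, and its other 6 groups were males at 2 mg/kg and fetuses of both sexes at 10 mg/kg. Since dams and litters are not labelled, fetuses of 1 group may be littermates, and the p-values speak only for the variation among the fetuses sampled. That spread was estimated over 38 libraries from all groups of the series, not over the 9 alone. CD replicate 4 was left out because it held lung message in place of liver message, which left CD replicates 1, 2, 3 and 5.

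Just before birth the mouse liver is both a metabolic organ and a blood-forming one. Its hepatocytes make albumin, clotting factors, bile acids and fat, and erythroid precursors that still divide lie between them. Fat synthesis is switched on by insulin and carbohydrate through the regulators SREBP1c and ChREBP and is held down by dietary unsaturated fat, whereas fasting and fatty acids, acting through PPARα, raise fatty acid burning. Cholesterol synthesis is driven by SREBP2 when cell sterols are low. The circadian clock is a feedback loop in which ARNTL, paired with CLOCK or NPAS2, activates the PER and CRY genes that shut it down.

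All 9 libraries carried liver message. Alb, the albumin gene, lay between 892731 in CD replicate 5 and 1437500 in WD replicate 1 on the authors' scale of normalized read counts, and Afp, which encodes alpha-fetoprotein, between 425335 and 582900. Xist, the RNA of the silenced X chromosome, was present in all 9, at 3138 to 6639. The normalized read counts of a library summed to between 15769515 and 20129685. CD replicate 5 also held message of other organs: Sftpc, a lung surfactant gene, was 30176 and Myh6, the heart muscle myosin, 2920. Sftpc was 0, 4.77 and 139.7 in the other CD libraries, 2008 in WD replicate 4 and at most 13.9 in the rest of the WD group. CD replicate 4, not compared here, had 7708 for Alb and 101239 for Sftpc. Summed over 18 lung markers the values were 1357, 1269.6, 1467 and 48978 in CD and 1282, 1093, 1268, 4503 and 1012 in WD, in the order of replicates 1, 2, 3 and 5 and then 1 to 5, which is kept below. Summed over 12 heart markers they were 125, 126, 219 and 28009 in CD and 161, 218, 135, 293 and 96.7 in WD. Values without CD replicate 5 are therefore given beside those of the 9 libraries. Libraries of the WD group also differed among themselves: over all tested genes WD replicates 1 and 3 correlated with CD replicates 1 to 3 at a mean r of 0.980 and 0.978, and WD replicates 2, 4 and 5 at 0.956, 0.958 and 0.945, against 0.941 for CD replicate 5. In whole tissue, fewer cells of a type and less RNA in each of them cannot be told apart.

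**Figure D1:**
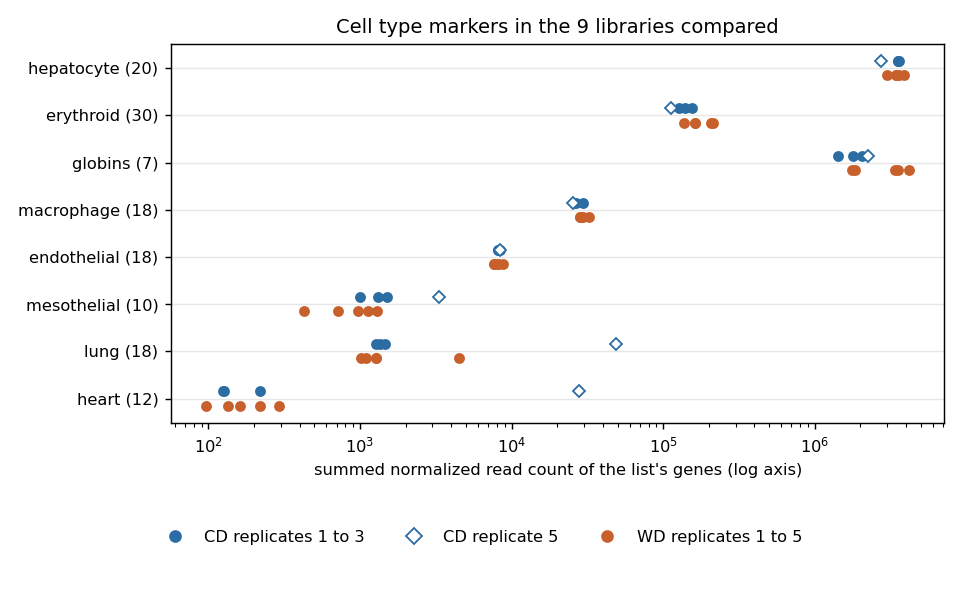
Summed normalized read count of the marker genes of 8 cell types (number of genes in brackets, log axis) in each of the 9 libraries. CD replicate 5 (open diamond) lies far above the others for lung (48978) and heart (28009) markers and highest for mesothelial markers, while hepatocyte sums run from 2734110 to 3897000.

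No gene passed the threshold. Among 14332 genes tested with limma on log2(value + 1), 0 (0%) had an adjusted p under 0.05 and the smallest adjusted p was 0.650. At an unadjusted p under 0.05 there were 457 genes higher in WD (3.19% of those tested) and 500 lower (3.49%), 957 in all. In 178 genes (1.24%) all 5 WD values lay above all 4 CD values, and in 190 (1.33%) all lay below. These shares are the background for each list below. The count of 957 was 688 without CD replicate 5, 600 without CD replicate 2, 597 without WD replicate 2, 432 without WD replicate 5 and 1553 without WD replicate 3. Genes are given below with their log2 difference and its standard error (SE) from the limma fit. Where a log2 difference is followed by a value in square brackets, that value is the one without CD replicate 5. None of them passed: their adjusted p-values lay between 0.650 and 0.836. The lists are described by their counts and their median, beside a median of -0.01 over all tested genes, of which 6969 were higher and 7363 lower.

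Genes that make fatty acids and triglycerides were mostly lower in the WD group. Of 27 members, all tested, 22 were lower and 5 higher, with a median log2 difference of -0.23. At an unadjusted p under 0.05, 3 were lower and 0 higher. Me1 (chr9:86581371-86695953, mm10), the malic enzyme that supplies NADPH for fat synthesis, was 696, 790.4, 681 and 460.5 in CD and 361, 511, 389, 297 and 223 in WD. All WD values but that of replicate 2 lay below the lowest CD value, which was that of replicate 5. The means were 657 ± 139.6 (SD, n = 4) and 356 ± 108 (SD, n = 5), with a log2 difference of -0.91 ± 0.36 SE, or -1.07 without CD replicate 5. Pnpla3 (chr15:84167837-84187236), a hydrolase of lipid droplets, was 58.1, 53, 42.3 and 33.6 in CD and 37.7, 28.3, 27.9, 12.7 and 21.5 in WD (log2 difference of -0.89 ± 0.32 SE, or -1.04 without CD replicate 5). Only WD replicate 1 lay within the CD range. Gpam (chr19:55067268-55127238), which starts triglyceride assembly, was 6448, 7311, 5999 and 3395 in CD and 4377, 3677, 5692, 2878 and 2551 in WD (log2 difference of -0.60 ± 0.26 SE, or -0.84 without CD replicate 5), and there CD replicate 5 lay below WD replicates 1, 2 and 3. The polyunsaturated fatty acid elongase Elovl5 was 1315, 1569, 986 and 803 in CD and 980.4, 779, 936, 599 and 635 in WD (log2 difference of -0.55 ± 0.31 SE, or -0.72 without CD replicate 5). Mid1ip1, a partner of acetyl-CoA carboxylase, had a log2 difference of -0.29 ± 0.16 SE, or -0.23 without CD replicate 5.

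The fatty acid list differed most clearly from CD replicates 1 to 3. Its median deviation from the CD mean was 0.22, 0.29, 0.08 and -0.60 in CD and -0.13, -0.15, -0.06, -0.41 and -0.45 in WD, so that all 5 WD libraries lay below CD replicates 1 to 3 while CD replicate 5 was the lowest of the 9. With CD replicate 5 left out the median was -0.45, 24 of 27 were lower, and 10 had an unadjusted p under 0.05. Me1, Pnpla3 and Gpam were then further apart between the groups, as given above. Leaving out CD replicate 2 or WD replicate 5 instead left 1 member at an unadjusted p under 0.05, and the median ran from -0.45 to -0.10 over the 9 libraries left out in turn. In CD replicate 5 the summed hepatocyte markers were the lowest of the 9, at 2734110, against 2975060 to 3897000 in the others. The part of that lower sum in the list's values was not tested.

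Cholesterol synthesis genes leaned the same way by less. Of 25 members 19 were lower, with a median log2 difference of -0.15, and 2 had an unadjusted p under 0.05. Insig1 (chr5:28071363-28078662), the membrane protein that holds SREBP back when sterols are plentiful, was 10519, 12587, 9934 and 7402 in CD and 8494, 6916, 7309, 6181 and 4863 in WD (log2 difference of -0.58 ± 0.24 SE, or -0.72 without CD replicate 5). Sc5d (chr9:42251595-42264256), a desaturase late in the pathway, was 5585, 5786, 4434 and 2778 in CD and 3145, 3246, 3455, 2395 and 2688 in WD (log2 difference of -0.59 ± 0.25 SE, or -0.82 without CD replicate 5). In both genes the 5 WD libraries lay below CD replicates 1 to 3, and CD replicate 5 lay among them. The sterol reductase Hsd17b7 had a log2 difference of -0.61 [-0.93] and the isomerase Idi1 -0.27 [-0.44]. Leaving out CD replicate 5, 25 of 25 were lower, the median was -0.24 and 7 had an unadjusted p under 0.05. Without CD replicate 2 the count was 0, and it was 1 without CD replicate 1, WD replicate 4 or WD replicate 5.

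Genes of fatty acid burning were divided between higher and lower. Among 33 genes of fatty acid oxidation and other PPARα targets 18 were higher and 15 lower (median 0.02, and 0.01 without CD replicate 5), with 3 higher at an unadjusted p under 0.05. That count was 1 without CD replicate 3 or WD replicate 2. The median was below 0 without CD replicate 3 (-0.03), WD replicate 1 (-0.09) or WD replicate 4 (-0.07), with upper-quartile scaling, and with the trend on transcript length removed (-0.03). Cpt2 (chr4:107903981-107923610), which reloads fatty acids onto CoA inside mitochondria, was 577, 547, 597 and 521 in CD and 723, 1161, 586, 957 and 925 in WD. WD replicates 2, 4 and 5 were the high ones, and WD replicate 3 lay within the CD range (log2 difference of 0.60 ± 0.24 SE, or 0.56 without CD replicate 5). Acadvl, the dehydrogenase for very long chains, was 3030.0, 2467, 2624 and 3353 in CD and 3556, 4981, 3108, 4864 and 4310.1 in WD (log2 difference of 0.52 ± 0.24 SE, or 0.60 without CD replicate 5), with WD replicates 2, 4 and 5 again highest. Acaa2, the thiolase of the last step, was above CD in all 5 WD libraries, at 10149, 15457, 9748, 14123 and 11406 against 8952, 8199, 8842 and 9346 (log2 difference of 0.44 ± 0.24 SE, or 0.47 without CD replicate 5). Bdh1, a ketone body enzyme, averaged 2660.2 ± 360.1 (SD, n = 4) in CD and 3211 ± 265 (SD, n = 5) in WD (log2 difference of 0.28 ± 0.11 SE, or 0.21 without CD replicate 5). Fgf21, a hormone of fasting and a PPARα target, was low throughout, at 13.9, 5.74, 22.9 and 24.9 in CD and 5.41, 13.5, 3.56, 1.91 and 0 in WD (log2 difference of -1.93 ± 0.97 SE, or -1.69 without CD replicate 5).

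Cd36 (chr5:17781690-17888801), the fatty acid transporter of the cell membrane, was 1186, 1044, 951 and 1187 in CD and 771, 736, 857, 685 and 484 in WD. The groups did not overlap, and the means were 1092 ± 116 (SD, n = 4) and 706 ± 139 (SD, n = 5), with a log2 difference of -0.65 ± 0.25 SE, or -0.60 without CD replicate 5. It was 1 of 15 genes of fatty acid uptake and activation, of which 7 were higher and 8 lower (median -0.18, without CD replicate 5 -0.23), and the only one of them at an unadjusted p under 0.05, against 2 without CD replicate 1, CD replicate 5 or WD replicate 3. Its p was above 0.05 without WD replicate 5, when the list's median was 0.02. The lipoprotein receptor Vldlr had a log2 difference of -0.84 ± 0.47 SE, or -0.45 without CD replicate 5, and CD replicate 5 held 366 against 95.1 to 155 in the other CD libraries. The ligases Acsl4 and Acsl5 had log2 differences of -0.45 [-0.56] and -0.34 [-0.49], and the carrier Fabp5 0.20 [0.18]. Of 15 genes of lipid droplets and lipolysis 12 were tested and 7 were higher (median 0.03), none at an unadjusted p under 0.05. With CD replicate 5 left out 8 were higher (median 0.13) and 1 had an unadjusted p under 0.05, as did 1 without WD replicate 1 and 2 without WD replicate 3. The droplet median was below 0 without CD replicate 3, WD replicate 1 or WD replicate 4 and with upper-quartile scaling, the lowest of them being -0.04. Mgll, which splits monoglycerides, was 853, 608, 715 and 868 in CD and 805, 1534, 839, 1238 and 1420.0 in WD (log2 difference of 0.58 ± 0.29 SE, or 0.65 without CD replicate 5). The droplet genes Cideb, Abhd5, Hilpda and Plin3 had 0.26 [0.19], -0.24 [-0.38], 0.23 [0.37] and 0.12 [0.15].

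Lipoprotein genes were divided. Of 22, 13 were higher and 9 lower (median 0.08, and 0.11 without CD replicate 5), with 1 in each direction at an unadjusted p under 0.05. Lcat, which esterifies the cholesterol of HDL, averaged 2107 ± 210.1 (SD, n = 4) in CD and 2572 ± 512 (SD, n = 5) in WD (log2 difference of 0.27 ± 0.13 SE, or 0.20 without CD replicate 5). Lipg, the endothelial lipase, was near the detection range at 7.79, 14.1, 14.9 and 18.5 in CD and 11.8, 1.99, 14.3, 3.83 and 4.41 in WD (log2 difference of -1.05 ± 0.47 SE, or -0.90 without CD replicate 5). Neither had an unadjusted p under 0.05 without CD replicate 5, CD replicate 3 or WD replicate 4. Pltp, which transfers phospholipids between particles, was below CD in all 5 WD libraries, at 542, 708, 604, 671 and 569 against 794, 1130.0, 1066 and 776 (log2 difference of -0.59 ± 0.31 SE, or -0.68 without CD replicate 5). The small apolipoprotein genes Apoc1 and Apoa2 had log2 differences of 0.50 [0.59] and 0.50 [0.53], with WD replicates 2, 4 and 5 high: Apoa2 was 32234, 27051, 29022 and 31752 in CD and 36009, 53356, 28217, 53738 and 47442 in WD.

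**Figure D2:**
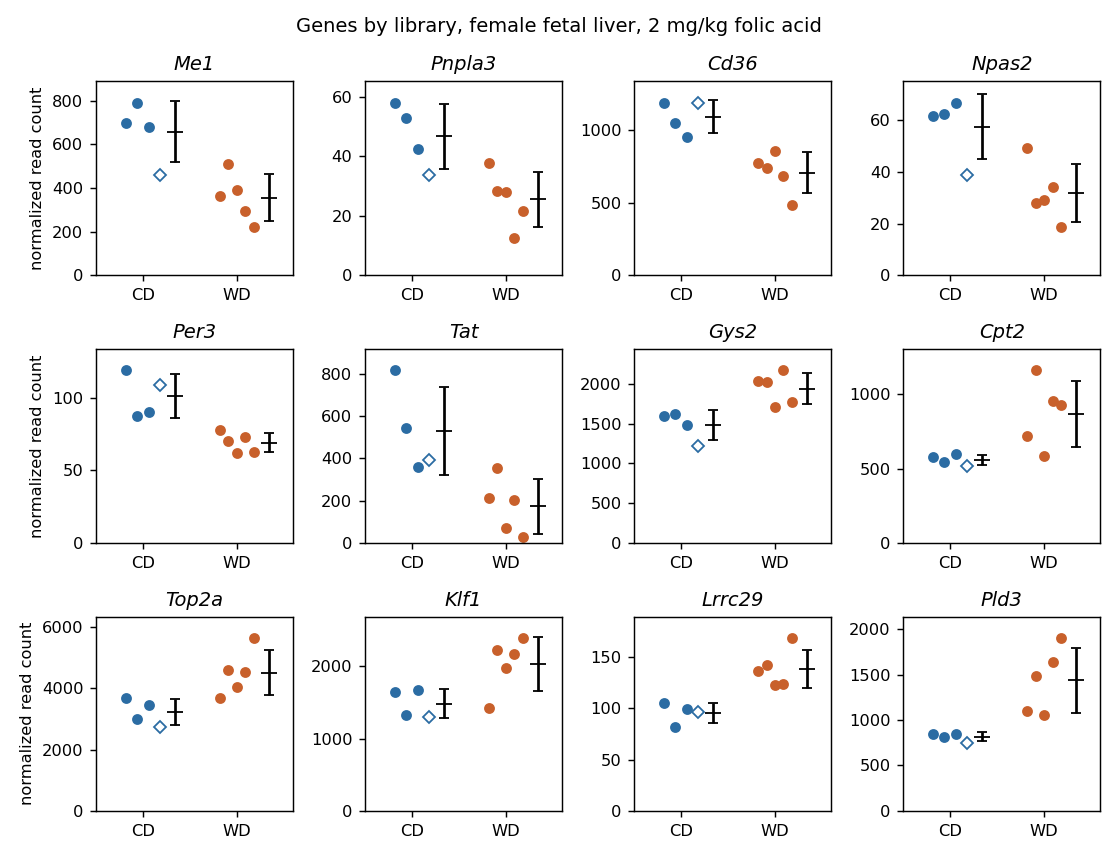
Normalized read count of 12 genes in each library, CD replicates 1, 2, 3 and 5 in blue (replicate 5 as an open diamond) and WD replicates 1 to 5 in orange, with mean ± SD beside each group. Cd36, Per3, Tat, Gys2, Lrrc29 and Pld3 do not overlap between groups, while Me1 has 1 WD library at 511 among the CD values.

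Among 17 genes of glucose making and glycogen 7 were higher and 10 lower (median -0.02, and -0.14 without CD replicate 5, but 0.09 without WD replicate 5), and the largest differences were in a few of them. Tat (chr8:109990437-109999803), tyrosine aminotransferase, an enzyme that the liver switches on around birth, was 815, 544, 360.4 and 394 in CD and 213, 353, 72.4, 202 and 28 in WD. All 5 WD values lay below all 4 CD values, with WD replicate 5 the lowest, and the groups had a log2 difference of -1.98 ± 0.98 SE, or -2.10 without CD replicate 5. Gys2 (chr6:142422613-142473109), the liver glycogen synthase, went the other way with no overlap, at 1598, 1625, 1489 and 1221 in CD and 2030.2, 2023, 1714, 2168 and 1766 in WD (log2 difference of 0.39 ± 0.15 SE, or 0.30 without CD replicate 5). Ppp1r3b, which targets a phosphatase to glycogen, and Gbe1, the glycogen branching enzyme, had log2 differences of -0.49 [-0.57] and -0.33 [-0.43]. Gys2 alone had an unadjusted p under 0.05, and without CD replicate 5 its p by limma was 0.0738. In that fit 1 lower gene of the list had an unadjusted p under 0.05. So did 1 lower gene without WD replicate 1, 3 or 4, and 2 without WD replicate 2.

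Clock genes were lower in WD in 16 of 17 tested members of 19 listed, with a small median of -0.14. At an unadjusted p under 0.05, 3 were lower and 0 higher. Npas2 (chr1:39193731-39363236), a partner of ARNTL, had the smallest p of all lower genes. Its values were 61.6, 62.2, 66.7 and 38.8 in CD and 49, 27.9, 29, 34.1 and 18.7 in WD, so WD replicate 1 lay above CD replicate 5 and all 5 lay below CD replicates 1 to 3 (log2 difference of -0.87 ± 0.24 SE, or -1.04 without CD replicate 5). Per3 (chr4:151003652-151044665), a period gene, was 119, 87.2, 90.3 and 109 in CD and 77.6, 70.4, 62.1, 72.9 and 62.6 in WD, with no overlap (log2 difference of -0.54 ± 0.21 SE, or -0.50 without CD replicate 5). Cry1 (chr10:85131700-85185064), a repressor of the loop, was 227, 373, 249 and 379 in CD and 265, 186, 273, 187 and 169 in WD (log2 difference of -0.50 ± 0.19 SE, or -0.38 without CD replicate 5). WD replicates 1 and 3 lay within the CD range of Cry1 and the other 3 below it. Nr1d2 and Arntl, a repressor and an activator of the loop, had log2 differences of -0.52 [-0.45] and -0.34 [-0.41]. By library the list's median deviation was 0.06, 0.15, -0.15 and -0.10 in CD and -0.02, -0.39, -0.11, -0.16 and -0.64 in WD. WD replicates 5 and 2 were the lowest, WD replicates 1 and 3 lay within the CD range, and WD replicate 4 lay just below it. After leaving out CD replicate 5 the median was -0.23, with 14 of 17 lower. The labels give no hour of collection.

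ARNTL with CLOCK or NPAS2 binds the E-box CACGTG, which reads the same on both strands, and MYC-type and ChREBP factors bind sites of the same kind. In the RefSeq promoters of build GRCm38.p6, which has the coordinates of mm10, the 250 bases before a start held this E-box in 5 of 16 clock genes with a promoter in the table (Bhlhe41, Ciart, Cry1, Per1 and Tef) and in 3 of 21 genes of fatty acid synthesis (Elovl5, Mlxipl and Slc25a1), against 9.67% of the 10758 tested genes with a promoter in the table and 6.86% of all 27025 genes in it. Bhlhe41 and Ciart were not among the tested genes, so the clock count and the 9.67% cover unlike sets. The sequences are shown for the 3 clock genes at an unadjusted p under 0.05 and for Elovl5, 5′ to 3′ on the gene's strand and ending at the base before the start that RefSeq gives, which can differ from the outer end of the gene given above, with the E-box in capitals.
Cry1, chr10:85185055-85185304, minus strand: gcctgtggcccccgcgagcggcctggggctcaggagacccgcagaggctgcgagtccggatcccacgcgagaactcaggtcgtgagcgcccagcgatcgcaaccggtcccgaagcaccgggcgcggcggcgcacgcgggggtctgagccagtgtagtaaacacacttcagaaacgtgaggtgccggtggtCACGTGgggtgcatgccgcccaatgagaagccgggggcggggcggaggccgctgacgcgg
Npas2, chr1:39194022-39194271, plus strand: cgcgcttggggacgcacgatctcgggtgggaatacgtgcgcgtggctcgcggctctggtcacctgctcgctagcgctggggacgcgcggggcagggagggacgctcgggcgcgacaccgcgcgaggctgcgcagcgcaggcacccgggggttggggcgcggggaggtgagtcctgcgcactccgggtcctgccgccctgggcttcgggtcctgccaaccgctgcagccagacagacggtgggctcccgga
Per3, chr4:151044666-151044915, minus strand: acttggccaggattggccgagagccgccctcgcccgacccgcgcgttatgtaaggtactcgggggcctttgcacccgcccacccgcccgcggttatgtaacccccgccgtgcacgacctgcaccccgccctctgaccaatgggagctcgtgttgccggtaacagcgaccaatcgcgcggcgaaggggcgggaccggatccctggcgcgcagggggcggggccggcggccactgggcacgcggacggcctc
Elovl5, chr9:77917115-77917364, plus strand: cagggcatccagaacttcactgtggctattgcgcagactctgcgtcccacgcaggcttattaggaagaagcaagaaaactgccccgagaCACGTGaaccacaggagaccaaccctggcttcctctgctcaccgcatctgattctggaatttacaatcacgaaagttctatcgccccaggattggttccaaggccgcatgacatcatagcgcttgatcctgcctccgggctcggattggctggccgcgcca
The E-box begins 60 bases before the start of Cry1 (position -60) and 161 before that of Elovl5 (position -161). These letters do not occur in the windows of Npas2 and Per3. A match is a description of the sequence only.

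Genes of dividing cells were higher in WD. Of 27 mitosis genes 24 were higher (median log2 difference 0.31), 10 of them at an unadjusted p under 0.05, where the background was 3.19%. Of 30 genes of DNA replication 27 were higher (median 0.29), 7 of them at an unadjusted p under 0.05. Nek2 (chr1:191821444-191833050), a kinase of centrosome separation, was 539.7, 414, 398 and 366 in CD and 474, 618, 503, 619 and 645 in WD (log2 difference of 0.42 ± 0.14 SE, or 0.35 without CD replicate 5). Top2a (chr11:98992943-99024189), the topoisomerase that untangles replicated chromosomes, was 3684, 2984, 3454 and 2744 in CD and 3669.6, 4606, 4048, 4534 and 5625 in WD (log2 difference of 0.48 ± 0.17 SE, or 0.40 without CD replicate 5). In both, WD replicate 5 was the highest of the 9 and WD replicate 1 lay within the CD range, as did WD replicate 3 for Nek2. Kif23, a motor of cell separation, Ccnb2, a mitotic cyclin, and Prc1, which bundles the midzone of the spindle, had log2 differences of 0.59 [0.53], 0.35 [0.32] and 0.33 [0.23]. In the replication list, Ung, which removes uracil from DNA, was above CD in all 5 WD libraries, at 167, 219, 182, 217 and 284 against 144, 127, 150.0 and 154 (log2 difference of 0.55 ± 0.23 SE, or 0.58 without CD replicate 5). The flap nuclease Fen1, the nucleotide reductase subunit Rrm1, the cell cycle regulator E2f1 and the chromatin assembly factor Chaf1a had 0.53 [0.49], 0.50 [0.44], 0.50 [0.46] and 0.37 [0.26].

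These counts depended on single libraries. Without CD replicate 5 the mitosis median was 0.18 with 21 of 27 higher, and the replication median 0.23 with 26 of 30 higher. The number of mitosis genes at an unadjusted p under 0.05 was then 4, and it was 3 without CD replicate 2, 5 without WD replicate 2, 5 without WD replicate 4 and 3 without WD replicate 5. For replication it was 3 without CD replicate 5, 3 without WD replicate 2, 0 without CD replicate 2 or WD replicate 5, 13 without WD replicate 1 and 12 without WD replicate 3. The direction of both medians was the same with each of the 9 libraries left out, with ranges of 0.18 to 0.38 and 0.21 to 0.38.

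Erythroid genes were higher together. All 30 tested genes of red cell precursors, of 31 listed, were higher in WD (median log2 difference 0.35), and 9 had an unadjusted p under 0.05. Klf1 (chr8:84901928-84905291), the transcription factor that drives red cell genes, was 1640.0, 1331, 1680.1 and 1295 in CD and 1422, 2222, 1984, 2175 and 2391 in WD, with WD replicate 1 within the CD range and the other 4 above it (log2 difference of 0.44 ± 0.17 SE, or 0.38 without CD replicate 5). Alad (chr4:62509169-62519918), the second enzyme of heme synthesis, was 2763, 2106, 2813 and 2932 in CD and 2795, 5358, 3249, 4431 and 6297 in WD (log2 difference of 0.69 ± 0.28 SE, or 0.74 without CD replicate 5). Gata1, the regulator that acts with Klf1, was 1207, 930.3, 1051 and 899 in CD and 1103, 2012, 1159, 1686 and 1867 in WD (log2 difference of 0.58 ± 0.24 SE, or 0.52 without CD replicate 5). Epor, the erythropoietin receptor, and Rhd, a membrane protein of red cells, had log2 differences of 0.54 [0.47] and 0.56 [0.57]. In Alad and Gata1 the high libraries were WD replicates 2, 4 and 5, and WD replicate 1 lay within the CD range, as did WD replicate 3 for Gata1. The list's median deviation was 0.16, -0.10, 0.09 and -0.18 in CD and 0.04, 0.59, 0.22, 0.19 and 0.61 in WD.

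The 7 globin genes spread further. All 7 were higher, with a median of 0.60 (0.71 without CD replicate 5), and none had an unadjusted p under 0.05. Hba-a2, an adult α-globin gene, was 875948, 555883, 699681 and 821527 in CD and 748566, 1711720, 737083, 1473950 and 1392090 in WD (log2 difference of 0.65 ± 0.41 SE, or 0.71 without CD replicate 5), and Hbb-bt, an adult β-globin gene, 230460, 172707, 216077 and 281796 in CD and 199949, 518720, 224185, 424959 and 434935 in WD (log2 difference of 0.60 ± 0.39 SE, or 0.71 without CD replicate 5). WD replicates 2, 4 and 5 held the highest values of Hbb-bt, whereas WD replicates 1 and 3 lay within the CD range. Hba-a1 and Hba-a2 are nearly identical, so reads could be split between them in ways that the files do not show. The embryonic Hba-x and Hbb-y had log2 differences of 0.67 [0.73] and 0.57 [0.57]. Summed over 30 erythroid markers the values were 154763, 127898, 140128 and 112127 in CD and 136861, 205802, 162029, 161372 and 214658 in WD, and over the globins 2057590, 1429770, 1777890 and 2258210 in CD and 1763520, 4202020, 1852290, 3546220 and 3397180 in WD. In the fit without CD replicate 5, 27 of 30 erythroid genes were higher (median 0.29, 6 at an unadjusted p under 0.05). The number at an unadjusted p under 0.05 was 1 without WD replicate 2 or WD replicate 5, 2 without CD replicate 2 and 15 without WD replicate 1. Over the 9 libraries left out in turn the erythroid median ran from 0.26 to 0.43 and the globin median from 0.47 to 0.80.

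**Figure D3:**
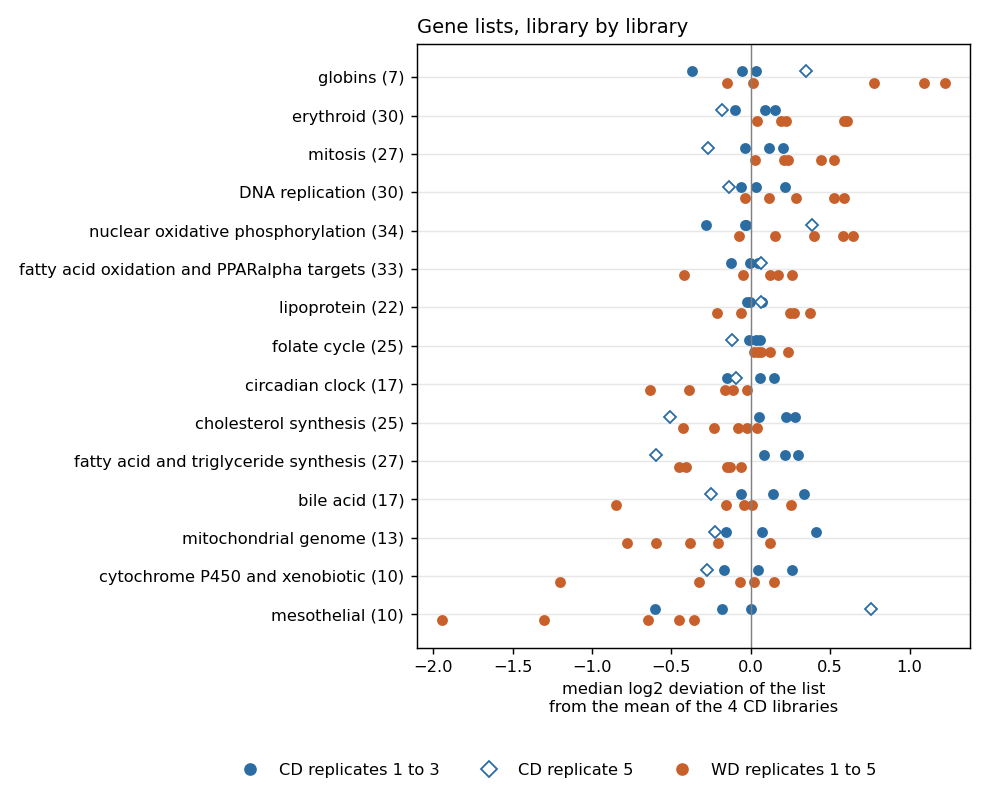
Median over each gene list (number of tested genes in brackets) of the log2 deviation from the mean of the 4 CD libraries, per library. Globin, erythroid and mitosis lists are highest in WD replicates 2 and 5, the globins at 1.23 and 1.09. Mesothelial genes are lowest in the same libraries (-1.30 and -1.95). CD replicate 5 (open diamond) stands apart from the other CD libraries in the mesothelial and lipid synthesis lists.

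Markers of the mesothelium, the cell sheet that covers the liver, were lower. All 10 were lower in WD (median log2 difference -0.98), 7 of them at an unadjusted p under 0.05. Msln (chr17:25748613-25754378), mesothelin, was 219, 386, 362 and 1132 in CD and 205, 185, 222, 344 and 94.5 in WD (log2 difference of -1.15 ± 0.46 SE, or -0.69 without CD replicate 5). The high value was that of CD replicate 5, and the other CD libraries overlapped with WD. Lrrn4 (chr2:132868305-132880891), a membrane protein of mesothelial cells, was 52.2, 98, 75.4 and 118 in CD and 56.3, 32.7, 66.5, 34.7 and 20.3 in WD (log2 difference of -1.07 ± 0.35 SE, or -0.89 without CD replicate 5). Bnc1, a zinc finger factor of the same cells, was not high in CD replicate 5, at 27.9, 41.1, 33.3 and 34.6 in CD and 21.9, 9.78, 30.0, 19.6 and 5.61 in WD (log2 difference of -1.13 ± 0.47 SE, or -1.12 without CD replicate 5). The membrane protein gene Gpm6a had a log2 difference of -0.76 [-0.57]. Summed over the 10 genes, the values were 992, 1514, 1323 and 3307 in CD and 968, 719.8, 1129, 1302 and 430.1 in WD. Without CD replicate 5 all 10 were still lower, the median was -0.58 and 2 had an unadjusted p under 0.05. That number was 3 without CD replicate 2, 4 without WD replicate 2 and 1 without WD replicate 5, with the median between -1.22 and -0.58 over the 9 libraries left out in turn. CD replicate 5 also holds the lung and heart message, and mesothelium covers those organs too. The part of those organs in these values was not tested.

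Lung markers were lower in WD in 9 of 9 tested genes of 18 listed (median -0.86), and heart markers in 6 of 6 of 14 listed (median -1.60). Without CD replicate 5 the medians were 0.22 and 0.20, with 6 of 9 and 4 of 6 higher. Slc34a2, the phosphate carrier of lung epithelium, was 4.58, 11.4, 32.7 and 1801 in CD and 4.41, 1.9, 5.23, 85.9 and 1.38 in WD, and Napsa, a protease that processes surfactant, 187, 172, 168 and 745 in CD and 176, 138, 133, 219 and 106 in WD. Hopx, Cbr2 and Abca3, the other lung genes with the smallest p, had log2 differences of -0.64, -1.36 and -0.25, and 0.13, 0.50 and -0.24 without that library.

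Genes of mature hepatocyte work were mixed. Of 20 hepatocyte markers 11 were higher and 9 lower (median 0.07), and without CD replicate 5 9 were higher and 11 lower (median -0.04). Cytochrome P450 and other xenobiotic genes were lower in 8 of 10 tested members of 13 listed (median -0.42, and -0.49 without CD replicate 5), and bile acid genes in 13 of 17 of 18 listed (median -0.23, and -0.30 without it). Cyp3a11, a main drug-metabolizing enzyme of mouse liver, was 2486, 2449.8, 1362 and 1515 in CD and 1902, 1957, 1275, 1363 and 562 in WD (log2 difference of -0.54 ± 0.40 SE, or -0.64 without CD replicate 5). WD replicate 5 was the low one. In that library the P450 list's median deviation was -1.21 and that of the bile acid list -0.85, against -0.33 to 0.26 and -0.25 to 0.33 in the other 8. Without it the medians were -0.22 and -0.13.

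Abcg8 and Abcg5, the neighbouring genes (chr17:84676302-84700333 and chr17:84658234-84683011) whose proteins together pump sterols into bile, were lower than CD replicates 1 to 3 in all 5 WD libraries. Abcg8 was 71.3, 107, 68.8 and 24.5 in CD and 30.6, 31.6, 36.4, 35.5 and 17.4 in WD (log2 difference of -1.01 ± 0.39 SE, or -1.43 without CD replicate 5), and Abcg5 47.6, 47.5, 32.7 and 16.2 in CD and 23.8, 16.9, 29.6, 10.8 and 5.63 in WD (log2 difference of -1.09 ± 0.54 SE, or -1.42 without CD replicate 5). CD replicate 5 lay within the WD range in both. Abcg8 was the only bile acid gene at an unadjusted p under 0.05, and no bile acid gene was without CD replicate 2 or WD replicate 5. The remaining named members, Baat, which joins bile acids to taurine, Akr1d1, a bile acid reductase, and Slco1b2, an uptake carrier, had log2 differences of -0.41 [-0.45], -0.53 [-0.64] and -0.66 [-0.57]. Of the xenobiotic list, the dioxin receptor Ahr had -0.60 [-0.73], the nuclear receptor Nr1i3 -0.54 [-0.62], Cyp3a13 -0.35 [-0.48] and Cyp3a16 -0.48 [-0.50]. None of those 4 had an unadjusted p under 0.05.

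The respiratory chain lists leaned opposite ways by genome. Of 34 nuclear genes of oxidative phosphorylation 31 were higher in WD (median log2 difference 0.34), none at an unadjusted p under 0.05, and of 13 messages of the mitochondrial genome 10 were lower (median -0.37), also none. Without CD replicate 5 the medians were 0.44 and -0.48, and 6 nuclear genes had an unadjusted p under 0.05, as did 6 without WD replicate 3. Without CD replicate 1 the mitochondrial median was -0.22, with 7 of 13 lower. By library the nuclear list's median deviation was -0.03, -0.28, -0.03 and 0.38 in CD and 0.15, 0.64, -0.07, 0.58 and 0.40 in WD. WD replicates 1 and 3 lay within the CD range, and CD replicate 5 was close to WD replicate 5. For the mitochondrial list it was 0.41, 0.07, -0.15 and -0.22 in CD and 0.12, -0.38, -0.60, -0.78 and -0.21 in WD. There WD replicates 1 and 5 lay within the CD range. Ndufb10 (chr17:24722060-24724478), a complex I subunit, was 1594, 1282, 1442 and 2156 in CD and 2139, 3358, 1529.9, 3066 and 2953 in WD (log2 difference of 0.66 ± 0.37 SE, or 0.81 without CD replicate 5), with WD replicates 2, 4 and 5 high. The complex I subunits Ndufs7, Ndufa8, Ndufs3 and Ndufs1 had 0.60 [0.79], 0.52 [0.60], 0.44 [0.55] and 0.26 [0.34]. The mitochondrial complex I message mt-Nd4 was 29016, 20424, 15199 and 12814 in CD and 21471, 11633, 11763, 7158 and 13699.8 in WD (log2 difference of -0.58 ± 0.36 SE, or -0.75 without CD replicate 5). It was lowest in WD replicate 4. The messages mt-Nd1, mt-Nd2 and mt-Nd5 had -0.43 [-0.47], -0.45 [-0.53] and -0.67 [-0.71], and mt-Co3 0.42 [0.61].

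The values also moved with transcript length. With the tested genes in 5 equal groups by the median length of their annotated transcripts, the median log2 difference was 0.12, 0.07, 0.01, -0.07 and -0.15 from the shortest group (up to 742 nt) to the longest (2688 nt and over). In the longest group the deviation from the CD mean was -0.31, -0.27 and -0.25 in WD replicates 2, 4 and 5 and -0.15 in CD replicate 5, and between -0.03 and 0.12 in the other 5 libraries. In males the same medians ran from -0.05 to 0.05 and in females at 10 mg/kg from -0.14 to 0.20, that is the other way. Nuclear oxidative phosphorylation genes (median 721 nt) and globins (613 nt) are short, and mesothelial markers (2739.5 nt) long, beside 1374 nt over all tested genes. With each library's trend on length removed, the list medians were 0.23 for nuclear oxidative phosphorylation, 0.49 for globins, 0.35 for erythroid genes, 0.25 for mitosis, 0.23 for replication, -0.33 for fatty acid synthesis, -0.17 for the clock and -0.91 for mesothelial markers. Each kept its direction, whereas the median of fatty acid oxidation went from 0.02 to -0.03. For mesothelial markers 8 of 10 had a length, and 3 had an unadjusted p under 0.05 after removal.

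**Figure D4:**
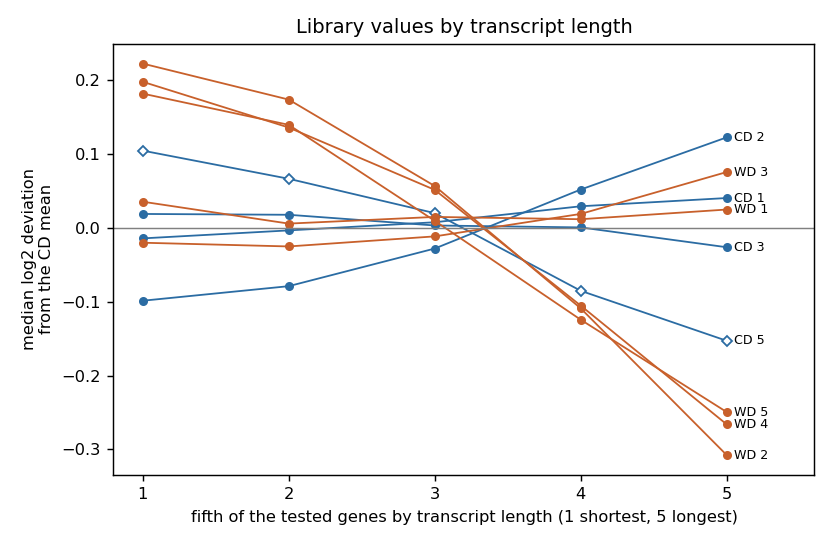
Median log2 deviation from the mean of the 4 CD libraries for the tested genes in 5 equal groups by transcript length, 1 line per library. WD replicates 2, 4 and 5 slope from 0.18 to 0.22 in the shortest group down to -0.31 to -0.25 in the longest, CD replicate 5 slopes the same way by less, and the other libraries are flatter or slope the other way.

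Genes of the folate cycle, the pathway fed by the vitamin that the study varied, did not move one way. Of 25 tested, of 26 listed, 15 were higher and 10 lower (median 0.06, and 0.02 without CD replicate 5). At an unadjusted p under 0.05, 3 were higher and 2 lower. Shmt2 (chr10:127517123-127522444), the mitochondrial enzyme that takes a carbon unit from serine, was 2561, 2296, 2840.1 and 2171 in CD and 2782, 3249, 3123, 3365 and 3761 in WD (log2 difference of 0.40 ± 0.15 SE, or 0.34 without CD replicate 5), with WD replicate 1 within the CD range. Mthfd2, the next mitochondrial enzyme, had a log2 difference of 0.46 [0.33]. Mtrr (chr13:68560780-68582149), which keeps methionine synthase active, was lower with no overlap, at 149, 139.7, 144 and 179 in CD and 93.9, 103, 113, 94.9 and 119.8 in WD (log2 difference of -0.54 ± 0.25 SE, or -0.46 without CD replicate 5). Mthfd2l, a relative of Mthfd2, had -0.49 [-0.33]. Without CD replicate 5, 1 gene was higher and 0 lower at an unadjusted p under 0.05; without WD replicate 2 each number was 1, without WD replicate 4 they were 3 and 0, and without WD replicate 5 they were 1 and 2. With CD replicate 1 or 3 or WD replicate 1 or 3 left out, 1 was lower. Of 17 tested genes of methionine, choline and betaine metabolism 8 were higher (10 without CD replicate 5), and of 10 genes of DNA methylation 4 (4 without it), with none at an unadjusted p under 0.05 in either.

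The smallest p-values among higher genes belonged to genes with no common list. Lrrc29 (chr8:105312265-105326278), a leucine-rich repeat protein, was 105, 82.1, 99.7 and 96.8 in CD and 137, 142, 123, 123 and 168 in WD (log2 difference of 0.52 ± 0.14 SE, or 0.53 without CD replicate 5). Prpf6, a core part of the spliceosome, was 906, 1019, 1085 and 801 in CD and 1220.1, 1172, 1317, 1247 and 1268 in WD (log2 difference of 0.39 ± 0.12 SE, or 0.31 without CD replicate 5). Pld3 (chr7:27532000-27553218), a lysosomal nuclease, was 852, 817, 851 and 753 in CD and 1096, 1484, 1059, 1638 and 1901 in WD (log2 difference of 0.78 ± 0.25 SE, or 0.74 without CD replicate 5). In all 3 the groups did not overlap, and the same held for Dhx34, a helicase of RNA decay (0.70 [0.50]), Selplg, the ligand of P-selectin on white cells (0.46 [0.36]), Plek2, a pleckstrin of red cell precursors (0.68 [0.61]), P3h1, a collagen prolyl hydroxylase (0.70 [0.57]), and Vars2, the mitochondrial valyl-tRNA synthetase (0.84 [0.74]). Rpusd4, a mitochondrial RNA-modifying enzyme (0.32 [0.41]), and Il27ra, a cytokine receptor chain (0.85 [0.54]), overlapped.

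For 2 of the 12 higher genes with the smallest p the files hold zeros that make a fold unusable. Gemin4 (chr11:76210571-76217664), a part of the complex that assembles splicing particles, was 198, 251, 0 and 0 in CD and 78.8, 171, 275, 165 and 247 in WD (unadjusted p = 0.000472). It is listed at 0 in CD replicates 3 and 5 and lies within the WD range in CD replicates 1 and 2. Its adjusted p by limma was 0.0422 without CD replicate 1 and 0.0139 without CD replicate 2. Amy2a3 (chr3:113312455-113324052), a pancreatic amylase gene, is listed at 0 in all 4 CD libraries and was 97.4, 229, 195, 42.9 and 249 in WD. Amy2a2, Amy2a4 and Amy2a5 are nearly identical to it, and summed over the 4 genes the values were 242, 192, 208 and 207 in CD and 282, 229, 589, 316 and 249 in WD, which overlap. The division of reads among the 4 copies is uncertain. Amy2a3 had an adjusted p of 6.16e-05 by limma when the 9 libraries were fitted alone.

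Of the 12 lower genes with the smallest p, all but Npas2 had their highest value of the 9 libraries in CD replicate 5. That library also holds the lung and heart message, and its part in these values was not tested. Timp3 (chr10:86300372-86349506), an inhibitor of matrix proteases, was 350.0, 355, 364 and 1139.7 in CD and 334, 254, 285, 274 and 186 in WD (log2 difference of -0.86 ± 0.25 SE, or -0.44 without CD replicate 5). The other CD libraries lay just above the WD group. Wwtr1, the growth regulator TAZ, was 173, 245, 191 and 412 in CD and 165, 99.6, 131, 122 and 75.3 in WD (log2 difference of -1.06 ± 0.33 SE, or -0.81 without CD replicate 5). Parp3 (chr9:106470322-106476949), an ADP-ribosyl transferase of DNA repair, did not rest on that library, at 51.3, 34.8, 45.7 and 54.6 in CD and 26.5, 18.8, 34, 16.5 and 19.1 in WD, with no overlap (log2 difference of -1.02 ± 0.29 SE, or -0.94 without CD replicate 5). Cacna2d1, a calcium channel subunit, and Cavin2, a coat protein of caveolae, also did not overlap (-1.10 and -0.60; -0.61 and -0.35 without CD replicate 5). The actin regulators Mical2 and Pls3 had -1.05 [-0.78] and -0.84 [-0.54], and the membrane protein Mal2 -0.55 [-0.43]. Gm37494, Cttnbp2 and Fibin were lower with overlap (-1.37 [-1.01], -1.72 [-1.30] and -1.87 [-1.06]). In CD replicate 5, Fibin stood at 204 against 19.9 to 23.6 in the other CD libraries.

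The female difference was set against that in males at 2 mg/kg (5 WD and 5 CD libraries) and against that in females at 10 mg/kg (5 WDF and 4 CDF libraries, WDF and CDF naming the same diets at that folic acid content, with 1 CDF library low in albumin message left out and 1 CDF library whose column name lacks the sex assigned by elimination), which share no libraries with it. By limma 0 of 14332 genes differed between the female and the male effect (856 at an unadjusted p under 0.05, smallest adjusted p 0.618), and 0 between the 2 folic acid contents (1916 and 0.354). The effects themselves gave 0 genes in males (949 at an unadjusted p under 0.05) and 0 in females at 10 mg/kg (1177). Across genes, which are not independent replicates, the female log2 differences correlated with those in males at r = -0.02 and with those at 10 mg/kg at r = -0.24.

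Since dams are not labelled, these females and the males may be littermates, so their comparisons need not be independent. The lipid synthesis lists leaned one way in all 3 comparisons. The median log2 difference of fatty acid synthesis was -0.23 in these females, -0.46 in males and -0.24 in females at 10 mg/kg, and that of cholesterol synthesis -0.15 in these females, -0.37 in males and -0.09 in females at 10 mg/kg. Me1 had -0.91 here, -1.14 ± 0.34 SE in males and -0.99 ± 0.36 SE in females at 10 mg/kg, and Pnpla3 had -0.89 here, -0.80 ± 0.30 SE in males and -0.76 ± 0.32 SE in females at 10 mg/kg. The unadjusted p of the difference between these females and males was 0.648 for Me1 and 0.835 for Pnpla3, which does not show that the effects are equal. Mesothelial markers had medians of -0.98 in these females, -0.39 in males and -0.44 in females at 10 mg/kg. Mitosis genes had 0.31 in these females, 0.33 in males and 0.21 in females at 10 mg/kg, and erythroid genes 0.35 in these females, 0.30 in males and 0.13 in females at 10 mg/kg.

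Other lists did not keep their sign. Globins had medians of 0.60 in these females, 0.11 in males and -0.40 in females at 10 mg/kg, and nuclear oxidative phosphorylation 0.34 in these females, -0.11 in males and -0.24 in females at 10 mg/kg. The clock list had -0.14 in these females, -0.18 in males and 0.16 in females at 10 mg/kg. Messages of the mitochondrial genome had -0.37 in these females, 0.06 in males and 0.38 in females at 10 mg/kg. DNA replication genes, unlike those of mitosis, had 0.29 in these females, 0.30 in males and -0.05 in females at 10 mg/kg. In that last comparison 13 of the 30 were higher and 17 lower. Per3 was -0.54 here, -0.40 ± 0.20 SE in males and 0.62 ± 0.21 SE in females at 10 mg/kg, and the difference between the folic acid contents had an unadjusted p of 0.00049 and an adjusted p of 0.354 by limma. Npas2 was -0.87 here, -0.67 ± 0.23 SE in males and -0.11 ± 0.24 SE in females at 10 mg/kg. Cd36 was -0.65 here, 0.29 ± 0.24 SE in males and 0.08 ± 0.25 SE in females at 10 mg/kg (unadjusted p of the female minus male difference 0.0107). Tat had -1.98 here, -1.35 ± 0.93 SE in males and -1.46 ± 0.98 SE in females at 10 mg/kg, lower in each.

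**Figure D5:**
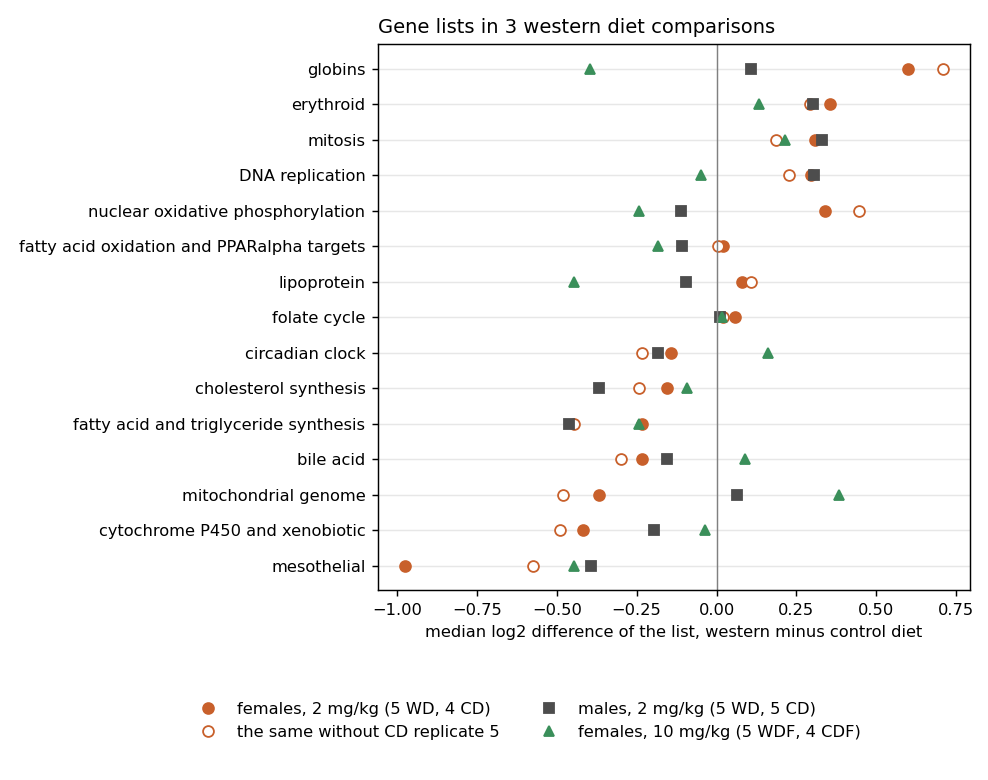
Median log2 difference, western minus control diet, of 15 gene lists in females at 2 mg/kg (filled circles; open circles without CD replicate 5), males at 2 mg/kg (squares) and females at 10 mg/kg (triangles). Fatty acid synthesis, cholesterol synthesis, P450 and mesothelial lists lie below 0 in all 3, while the globin median is 0.60, 0.11 and -0.40.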

How the data were processed

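RNA-seq of whole fetal liver was analysed from 1 table that the authors deposited for all 40 libraries, mapped to samples by their titles; 1 column of the 10 mg/kg females lacks the sex in its name and was assigned by elimination. Its signal values are read counts per gene that the authors had divided by a size factor per library: the deposited values are not whole, and median-ratio factors recomputed from them are the same in every library (ratio of highest to lowest 1). The submitters' processing notes name Trimmomatic 0.39, STAR 2.7.3a, Salmon 1.3.0, DESeq2 1.24 and build mm10; the role of each is not given in the sources used here. Raw depth is not recoverable from such values, so precision is judged from the spread between libraries.

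Genes were kept where 4 or more of the 9 libraries reached 10, 14332 of 20593. log2(value + 1) was fitted with limma 3.58.1 (R 4.3.3) over 38 libraries with 1 term per diet, folic acid and sex group, leaving out CD replicate 4 and 1 library of the high folic acid group, both low in Alb. The 38 libraries share 1 estimate of the spread; p-values were adjusted by Benjamini-Hochberg over all tested genes, with a threshold of 0.05. Folds on this scale understate the change of low genes. The scripts were tested on simulated data. Of 836 entries in 46 gene lists 750 were tested; the comparison, the lists and the genes named were chosen with earlier results of these data known.

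The genes named are the 12 with the smallest p in each direction, up to 5 tested members with the smallest p of each described list, tissue checks (Alb, Afp, Sftpc, Sftpb, Myh6, Nppa, Klf1, Msln, Xist), and Amy2a3, Me1 and Npas2; some genes that the rule takes in are not reported here. Alternatives were other scalings, pseudocounts and filters, the 9 libraries, the female libraries or all 40 fitted, library weights, a replicate block, a trend on transcript length removed, and each of the 9 libraries left out. Gene coordinates are mm10, and promoters are RefSeq's for GRCm38.p6.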

Additional observations from a re-analysis of the deposited data

Results flagged for a closer look

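Values are on log2(value + 1). The genes below were named for their small p in this same comparison, and the groups of libraries looked at are not independent. In 6 of 90 groups looked at, 1 library stood apart from its group by Dixon's test, close to the 1 in 20 of chance. CD replicate 5 did so in 5 of them: Timp3 was 10.16 there against 8.455 to 8.512 in the other CD libraries, Pls3 8.529 against 7.235 to 7.356, Fibin 7.682 against 4.382 to 4.620, Cavin2 10.48 against 9.415 to 9.520, and Npas2, the only one of them that was low, 5.316 against 5.969 to 6.082. The same library carries the lung and heart message given above; its part in these values was not tested. In WD replicate 5, Dhx34 was 7.543 against 7.211 to 7.303 in the other WD libraries.

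CD replicate 4, which no comparison uses, held Sftpc at 101200 on the scale of normalized read counts, against 0 to 30180 in the other 9 female libraries at this folic acid content.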

How the results depend on the processing

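The count of 0 genes held under 20 of 24 alternatives. It was 1 when the 9 libraries were fitted alone and 1 with a replicate block in them, Amy2a3 both times (adjusted p 6.16e-05 and 0.000197 by limma), and ran from 0 to 1 with each library left out, the gene being Gemin4. The alternatives are not all separate. The fit without CD replicate 5 is among the 24 both by itself and in the set of single libraries left out. In the replicate block WD replicate 4 has no partner, so its log2 differences are those without WD replicate 4. The counts of signs below hold the same repeats. The labels do not say whether replicate numbers pair the samples. Same-numbered libraries correlated in their deviations at 0.155, -0.259, -0.006 and 0.033. Differently numbered libraries were not set beside them, so these values cannot decide it. The 957 genes at an unadjusted p under 0.05 were 1676 in the 9 libraries alone, 2553 with all 40 libraries, 3835 with library weights, 356 without CD replicate 5 and WD replicate 4, and 432 to 1553 with single libraries left out. With all 40 libraries, that is with the lung library in CD, medians turned positive for fatty acid synthesis (0.020), cholesterol synthesis (0.32), fatty acid uptake (0.70), gluconeogenesis (0.41), bile acid (0.93) and P450 lists (0.69), as did Pnpla3 (0.12), Sc5d (0.17), Idi1 (0.15), Abhd5 (0.13), Acsl5 (0.17), Gbe1 (0.14), Baat (1.097), Akr1d1 (0.78), Slco1b2 (0.78), Cyp3a13 (0.75), Nr1i3 (0.62), Cyp3a11 (0.96) and Cyp3a16 (1.01). Lung markers turned positive without CD replicate 5 (median 0.22, Hopx 0.13, Cbr2 0.50) and with library weights (0.043, 0.039 and 0.37); with single libraries left out they ran from -1.73 to 0.22, -1.01 to 0.13 and -2.53 to 0.50. In all, 24 of 437 list medians and 19 of 2629 values of named genes under the alternatives had another sign than in the fit reported. Beside those above, they were medians of fatty acid oxidation in 7 settings (-0.02 to -0.09), lipid droplets in 5 (-0.01 to -0.04), the folate cycle without CD replicate 5 and WD replicate 4 (-0.02), and fatty acid uptake (0.02) and gluconeogenesis (0.09) without WD replicate 5. Upper-quartile scaling turned fatty acid oxidation and droplets, removal of the length trend turned fatty acid oxidation, and no other rescaling, pseudocount or filter turned a list median or a named gene. Depth per library is not recoverable, so counting error cannot be separated from the spread between fetuses.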

Other observations

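Values in square brackets are again those without CD replicate 5. Lists not described above gave further values, and their genes below were picked after the values were seen. Of 16 genes of protein folding stress in the endoplasmic reticulum and amino acid stress 11 were higher (median log2 difference 0.12), and 3 of them had all 5 WD libraries above all 4 CD libraries and an unadjusted p under 0.05. Leaving out CD replicate 5, the median was 0.03 and 1 of the 3, Creld2, had an unadjusted p under 0.05. The chaperone Hsp90b1 was 12907, 13836, 13015 and 10906 in CD and 17396, 18173, 15373, 17741 and 20632 in WD (log2 difference of 0.50 ± 0.19 SE, or 0.42 without CD replicate 5), the lectin chaperone Calr had 0.37 [0.33], and Creld2, induced by folding stress, was 388, 355, 557 and 424 in CD and 579.6, 646, 746, 728 and 1077 in WD (log2 difference of 0.80 ± 0.27 SE, or 0.80 without CD replicate 5). Of 24 complement and coagulation genes 16 were higher (median 0.14), with 4 at an unadjusted p under 0.05: C8a (0.70 [0.62]), C8g (0.68 [0.84]), Cfb (0.31 [0.26]) and Proc (0.23 [0.16]). That number was 2 without CD replicate 5 (median 0.06), CD replicate 2 or 3 or WD replicate 2 or 5, and 1 without WD replicate 4. Marco, a scavenger receptor of macrophages, was 1273, 1069, 1161 and 966 in CD and 1469, 1712, 1503, 1858 and 2252 in WD, with no overlap (log2 difference of 0.64 ± 0.22 SE, or 0.58 without CD replicate 5), while the 18 macrophage markers had a median of 0.14, and of 0.06 without CD replicate 5. None of these genes passed after adjustment.

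On the lower side, Vegfa, the vessel growth factor, was 792, 743, 771 and 969 in CD and 655, 613, 496, 462 and 639 in WD, with no overlap (log2 difference of -0.52 ± 0.21 SE, or -0.44 without CD replicate 5), and Erg, an endothelial transcription factor, was 144, 198, 139 and 145 in CD and 121, 117, 114, 108 and 109 in WD, also with no overlap (log2 difference of -0.44 ± 0.21 SE, or -0.47 without CD replicate 5). The 18 endothelial markers had a median of -0.09, with 12 lower and 3 of them at an unadjusted p under 0.05, against 0 without CD replicate 5 or WD replicate 5 and 1 without WD replicate 2 or 4. Of 21 stellate and mesenchymal markers 9 were higher and 12 lower (median -0.17), with 1 higher, Colec11 (0.30 [0.27]), and 2 lower, Vim (-0.40 [-0.25]) and Col3a1, at an unadjusted p under 0.05. After leaving out CD replicate 5, 10 were higher and 11 lower (median -0.01), and none had an unadjusted p under 0.05. Igfbp5, which binds insulin-like growth factors, and Col3a1, a fibrillar collagen of the stellate list, had log2 differences of -0.98 and -0.95, and -0.77 and -0.75 without CD replicate 5; both were lowest in WD replicates 5 and 2. Imprinted genes (20, median -0.06) and interferon genes (18, 0.09) had none at an unadjusted p under 0.05. The same held for inflammatory signalling (13, 0.08) and urea cycle genes (17, 0.04). With single libraries left out, 1 urea cycle gene did without CD replicate 1 or 5 or WD replicate 3 or 5. Of the imprinted genes 1 did without CD replicate 3 or WD replicate 3, and 2 did without WD replicate 1.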
